A study of Mus musculus with 12 samples.

Results

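The 6 postnatal day 5 (P5) libraries of a mouse retinal pigment epithelium (RPE) study differed widely in transcripts of the neural retina, and the 3 libraries of high photoreceptor signal are described here against the 3 of low signal. The sets were chosen by measured values: the libraries were ordered by the mean log2 level of Rbp3, Sag and Nr2e3, which are photoreceptor genes. That mean was 8.76 in wild-type (WT) replicate 1, 8.89 in conditional knockout (cKO) replicate 1 and 10.62 in WT replicate 2, the low libraries. It was 11.79 in cKO replicate 3, 12.95 in cKO replicate 2 and 14.08 in WT replicate 3, the high libraries. The division therefore fell between WT replicate 2 and cKO replicate 3, a narrower step than that from cKO replicate 1 to WT replicate 2. All per-library values below follow that order, from WT replicate 1 to WT replicate 3. Of the 13942 genes in the table, 12816 stood above its floor of 50 in at least 3 of the 6 P5 libraries and are the genes described. Because measured values chose the libraries, the comparison of high with low libraries is a description and carries no test.

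The series holds 12 libraries of polyA RNA labelled RPE from C57BL/6J mice, 3 in each of 4 groups: WT and Sox9.cKO embryos of E15.5, and WT and Sox9.cKO pups of P5. Neither the Cre line, the deleted exons, the dissection nor any pooling of animals is given in the sources used here. The labels do not say that replicates came from separate animals, so p-values measure only the spread between these libraries. Values are gene counts that the authors quantile-normalised and floored at 50, so every library has the same median of 367.4, and the sequencing depth is unknown. Sox9 itself read 964, 2136 and 1499.5 in the low libraries and 2928, 2384 and 1111 in the high libraries, so all 3 P5 libraries labelled cKO lay above all 3 labelled WT, opposite to what the label of a deletion states. A count over the whole gene does not test the loss of some exons, and WT and cKO are therefore used only as the names on the labels.

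The RPE is a pigmented sheet that lies between the photoreceptors and the choroid, the vascular bed behind the retina. It makes melanin, recycles retinoids for the photoreceptors and takes up shed outer segment tips. In mouse, rods, bipolar cells and Müller glia are still being born in the first days after birth, and outer segments are only beginning to form. Tissue taken as RPE can hold attached neural retina on its inner face and choroid or sclera on its outer face. In bulk RNA, fewer cells of a type and less RNA per cell cannot be told apart.

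Transcripts of photoreceptors and synapses were several times more abundant in the high libraries, while those of vessels, connective tissue and macrophages were lower there. The bipolar and horizontal cell lists differed less, with median log2 ratios of 0.42 and 0.49. A gene was counted as apart when its lowest library of one set was at least 2 times its highest library of the other set. By that measure 122 genes, 0.952% of those described, were higher in the high libraries and 12 genes, 0.0936%, were lower. With any gap between the sets, 2046 genes (16%) were higher and 2516 (19.6%) lower, and the median log2 ratio of high over low medians across all genes was -0.02. Of the 122 higher genes, 36 belonged to lists of retinal neuron genes and 85 to none of the 31 lists used. None of the 12 lower genes was in a list. At the floor in all low libraries were 25 of the 122, which passed the filter through the high libraries alone and so had to differ. Just inside the limit, Reep6 read 100.1, 102 and 303 in the low and 607, 1325 and 1891 in the high libraries. Just outside it, Mtfp1 read 78.8, 54.0 and 83.9 in the low and 168, 223.5 and 465 in the high libraries.

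The 3 genes that ordered the libraries are given first. Rbp3, which encodes the interphotoreceptor retinoid-binding protein, read 720.2, 718 and 1774 in the low libraries and 4994, 10983.5 and 24109.8 in the high libraries. Sag, the arrestin of rod phototransduction, read 331, 378 and 1309 and 3419, 7935 and 15147. Nr2e3, a nuclear receptor that represses cone genes in rods, read 336, 388.5 and 1678 and 2617, 5637 and 14159.8. WT replicate 2 stood 2.46 to 5.0 times above WT replicate 1 in these genes, so the low libraries were not alike. Its Nr2e3 level came close enough to that of cKO replicate 3 that the nearest libraries of the sets were only 1.56 times apart. In all 6 E15.5 libraries Sag and Nr2e3 lay at the floor, and the highest value of Rbp3 there was 60.5.

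Promoters of these 3 genes and of Crx, a factor gene of the same cells, are shown as background. The homeodomain factors CRX and OTX2 bind the sequence TAATCC in photoreceptor promoters. The window runs from 250 bases before to 50 after the annotated start, from RefSeq on GRCm38.p6, and reads 5′ to 3′ on the strand of the gene. Capitals mark TAATCC or its reverse complement GGATTA, searched on both strands, and no other motif was searched.
Rbp3, chr14:33953753-33954052, plus strand: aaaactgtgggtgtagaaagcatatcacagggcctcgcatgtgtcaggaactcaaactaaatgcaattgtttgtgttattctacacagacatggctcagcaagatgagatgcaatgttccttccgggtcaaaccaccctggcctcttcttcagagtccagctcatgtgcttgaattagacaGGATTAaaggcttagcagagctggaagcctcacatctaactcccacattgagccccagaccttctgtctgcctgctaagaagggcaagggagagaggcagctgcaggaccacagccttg
Sag, chr1:87803430-87803729, plus strand: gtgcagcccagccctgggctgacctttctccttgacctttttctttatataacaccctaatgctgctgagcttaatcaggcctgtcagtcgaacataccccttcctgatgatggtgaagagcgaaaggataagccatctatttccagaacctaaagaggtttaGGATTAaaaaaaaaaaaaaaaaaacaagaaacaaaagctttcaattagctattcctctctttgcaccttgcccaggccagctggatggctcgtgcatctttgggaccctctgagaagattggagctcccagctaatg
Nr2e3, chr9:59950030-59950329, minus strand: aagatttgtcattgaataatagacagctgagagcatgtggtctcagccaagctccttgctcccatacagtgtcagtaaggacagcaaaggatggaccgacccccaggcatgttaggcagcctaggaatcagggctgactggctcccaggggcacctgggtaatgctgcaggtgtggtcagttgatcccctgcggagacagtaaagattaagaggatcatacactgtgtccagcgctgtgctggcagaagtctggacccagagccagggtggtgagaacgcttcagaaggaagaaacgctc
Crx, chr7:15879906-15880205, minus strand: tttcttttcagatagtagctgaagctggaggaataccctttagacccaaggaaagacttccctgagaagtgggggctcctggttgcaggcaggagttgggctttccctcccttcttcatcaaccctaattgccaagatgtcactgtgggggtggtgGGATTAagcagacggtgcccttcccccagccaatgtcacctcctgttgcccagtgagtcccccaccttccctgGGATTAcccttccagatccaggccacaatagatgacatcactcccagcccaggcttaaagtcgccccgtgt
The windows of Rbp3 and Sag hold 1 match each and that of Crx holds 2, while that of Nr2e3 holds 0. Of all 32851 promoters in the table, 7.06% hold the letters. Counted by gene, 687 of the 9746 described genes with a window hold a match (7.05%), against 19 of the 81 with a window among the 122 higher genes (23.5%). Among the phototransduction and outer segment list, 15 of 34 genes with a window hold one (44.1%). A match is a run of letters and not a measured binding site. The 122 genes were chosen by values of these libraries and include photoreceptor genes. Whether the motif bears on the differences between the libraries was not tested.

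**Figure D1:**
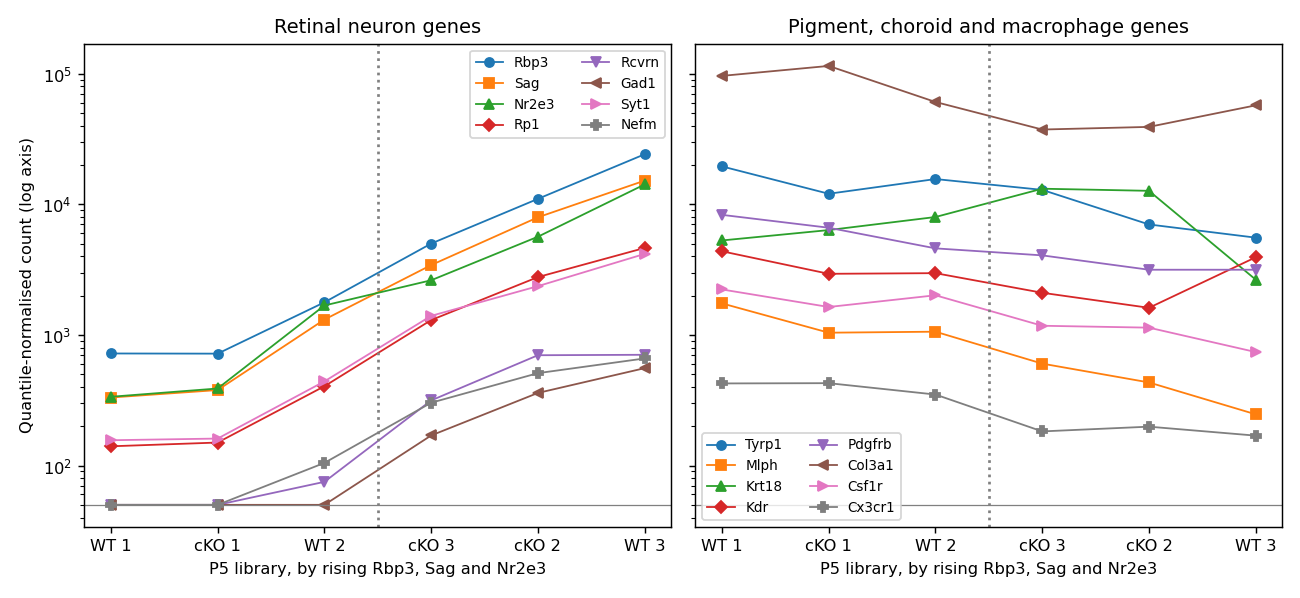
Quantile-normalised count on a log axis for 16 genes in the 6 P5 libraries, ordered by rising Rbp3, Sag and Nr2e3, with 1 point per library, a dotted line between the low and high libraries and a grey line at the floor of 50. The 8 retinal neuron genes on the left climb across the libraries, Rp1 from 140.3 to 4625, while most pigment, choroid and macrophage genes on the right descend.

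The libraries were ordered by photoreceptor genes, so the high values of the photoreceptor lists, which hold Rbp3, Sag and Nr2e3, follow from the choice and are given as a description. Of the 47 genes in the phototransduction and outer segment list, 43 were in the table and 41 passed the filter. Of these 41, 36 were higher in all 3 high libraries than in any low library, against 16% of all genes. None was lower, and the list median log2 ratio was 3.05. The list took 0.13%, 0.124% and 0.223% of the summed values in the low libraries and 0.396%, 0.732% and 1.22% in the high libraries, against 0.0779% to 0.0813% at E15.5. Rcvrn, the calcium sensor recoverin, read 50, 50 and 75.0 in the low and 315, 698 and 704 in the high libraries. Its lowest high library was 4.2 times its highest low library, among the widest gaps of the 122 higher genes.

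Rod and cone genes both took part. Rp1, a microtubule protein of the outer segment axoneme, read 140.3, 149.9 and 404 in the low and 1297, 2767.5 and 4625 in the high libraries. Pde6a, a catalytic subunit of the rod phosphodiesterase, lay at the floor in every low library and read 159.8, 338 and 273 in the high libraries. Cngb3, a subunit of the cone cyclic nucleotide-gated channel, also lay at the floor in the low libraries and read 143, 109.5 and 275 in the high. Opn1sw, the short-wavelength cone opsin, read 50, 50 and 182 and 339.9, 542 and 1377. Where the low libraries lay at the floor, a ratio to them is a lower bound. The exceptions in the list included Abca4, a retinoid flippase, at 1585, 2149 and 1938 and 3669.6, 3526 and 1327, and Slc24a1, the rod sodium, calcium and potassium exchanger, at 837, 367 and 729 and 540.3, 534 and 222. In both the sets overlapped, and WT replicate 3, the library highest in Rbp3, was the lowest of the 6.

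The transcription factors that specify photoreceptors followed with smaller gaps between the sets. Of 12 list members that passed, 8 were higher without overlap, against 16% of all genes. None was 2 times apart, and the median log2 ratio was 2.11. Crx, the cone-rod homeobox factor, read 419, 382 and 1420.5 in the low and 2501, 5169 and 16367 in the high libraries. Nrl, the leucine zipper factor of rod fate, read 269.9, 260.4 and 1031 and 1769, 3437 and 9389.5. Neurod1, a basic helix-loop-helix factor of photoreceptors and amacrine cells, read 205, 206 and 834 and 1305, 2405.5 and 7260.3. Otx2, which is needed in both photoreceptors and RPE, read 4123, 3829 and 7032 and 9981, 11579 and 13598. The sets did not overlap in any of these 4 genes, and WT replicate 2 was the highest of the low libraries in each.

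Genes of synapses and vesicles, shared by retinal neurons, formed the next block. Of 28 genes that passed, 25 were higher without overlap, against 16% of all genes, and 1 was lower. Of the 28, 8 were at least 2 times apart, against 0.952% of all genes, and the median log2 ratio was 2.38. That median was 2.06 over the synaptic genes above the floor in all 6 P5 libraries. Slc17a7, the vesicular glutamate transporter VGLUT1, read 85.6, 56.3 and 240.5 in the low and 806, 1773 and 1959.6 in the high libraries. Rims1, a scaffold of the presynaptic active zone, read 50, 50 and 80.3 and 259, 458 and 756. Syt1, the calcium sensor of vesicle release, read 156, 161 and 440.3 and 1397, 2359 and 4163. Synaptic genes thus separated the sets as widely as many phototransduction genes.

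Inner retinal cell types were represented as well. Among amacrine genes, 7 of 13 that passed were higher without overlap, against 16% of all genes, and none was lower. Their median log2 ratio was 1.61. That median was 1.2 over the amacrine genes above the floor in all 6 P5 libraries. Gad1, an enzyme of GABA synthesis, lay at the floor in all low libraries and read 169.8, 359 and 556 in the high libraries. Calb2, the calcium buffer calretinin, read 50, 50 and 107 in the low and 270.3, 533 and 838.5 in the high libraries. Slc32a1, the vesicular transporter of GABA and glycine, was at the floor in the low libraries and at 111, 227.5 and 389.7 in the high. Among ganglion cell genes, 10 of 14 were higher without overlap and 2 were lower, against 16% and 19.6% of all genes. Their median log2 ratio was 1.16. That median was 0.42 over the ganglion cell genes above the floor in all 6 P5 libraries and 0.48 with no filter. Nefm, a neurofilament subunit of long axons, read 50, 50 and 105 in the low and 302, 509 and 659.8 in the high libraries. Pou4f1, a POU factor of ganglion cells, was at the floor in the low libraries and at 105, 166 and 338 in the high. Genes at the floor in all low libraries, among them Gad1, Slc32a1 and Pou4f1, passed the filter through the high libraries alone. They therefore had to count as higher without overlap.

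Bipolar genes gave a mixed picture, with 5 of 10 higher without overlap, against 16% of all genes. Their median log2 ratio was 0.42, or 0.17 over the bipolar genes above the floor in all 6 P5 libraries. Isl1, a LIM homeobox factor of bipolar, amacrine and ganglion cells, was at the floor in the low libraries and at 188, 440.3 and 306 in the high. Isl1 too passed the filter through the high libraries alone. Grm6, the glutamate receptor of ON bipolar dendrites, was above the floor only in cKO replicates 3 and 2, at 117.0 and 323.2. WT replicate 3, the library with the highest photoreceptor signal, lay at the floor for Grm6. Of the horizontal cell list only 4 genes passed, too few to compare with the 16% of all genes that were higher. The 1 higher without overlap was Prox1, a homeobox factor, at 101, 101 and 225 in the low and 341, 659.8 and 1255 in the high libraries.

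**Figure D2:**
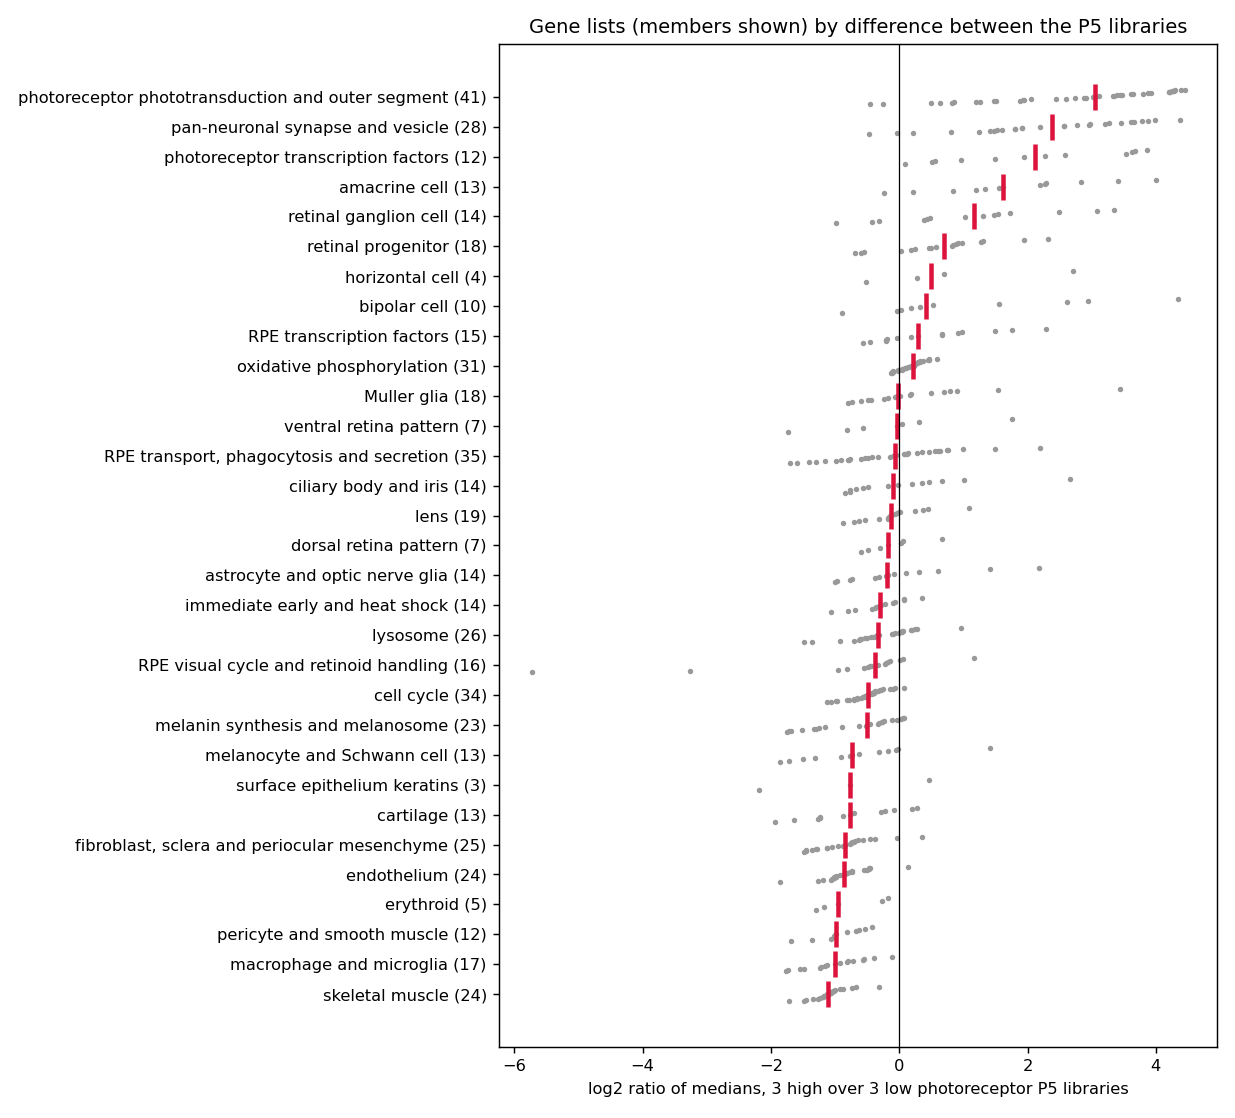
Log2 ratio of the median of the 3 high to the median of the 3 low photoreceptor P5 libraries for each gene that passed (grey points, number in brackets) of the 31 lists, with the list median as a red bar. Photoreceptor, synapse and amacrine lists lie at 3.05 to 1.61, and macrophage, pericyte and skeletal muscle lists at -0.99 to -1.12.

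The high libraries were not equal to one another, and the 2 highest differed in which retinal genes they held. WT replicate 3 was the highest library in 111 of the 122 higher genes and cKO replicate 2 in 10, against 1452 and 487 of the 2046 genes higher with any gap and 3924 and 1843 of all 12816 genes. Across the phototransduction list the median ratio of cKO replicate 2 to WT replicate 3 was 0.659, and across photoreceptor transcription factors it was 0.382, against 0.982 over all genes. Crx was 3.17 times, Neurod1 3.02 times and Nrl 2.73 times higher in WT replicate 3. Rcvrn was level, with a ratio of cKO replicate 2 to WT replicate 3 of 0.992. Pde6a was 1.24 times higher in cKO replicate 2, and Isl1 1.44 times. With 1 library of each kind, the difference has no replicate.

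In 6 neurogenic and early photoreceptor genes, some of them chosen after their values were seen, WT replicate 3 stood far above the other P5 libraries. Neurog2, a proneural basic helix-loop-helix factor, was at 263.1 in WT replicate 3 and at most 51.7 in the other P5 libraries. Dll3, a Notch ligand family member, was at 332.3 there and at most 63.5 elsewhere at P5. Hes5, a Notch target, read 50, 50 and 90.8 in the low and 70.8, 92.8 and 494 in the high libraries. Btg2, an antiproliferative gene of neurogenic progenitors, read 389.7, 422 and 627 and 426, 594 and 2946. Rorb, an orphan nuclear receptor of early photoreceptors and amacrine cells, read 175, 109.9 and 612 and 436, 848 and 4343. Prdm1, a zinc finger factor of photoreceptor precursors, read 211, 169.7 and 314 and 219.8, 414 and 1883. In these 6 genes cKO replicates 3 and 2 lay in or close to the range of the low libraries, unlike in Neurod1 and Insm1, where all 3 high libraries were above all low libraries. Fgf15 and Atoh7, genes of embryonic retinal progenitors, were at the floor in all 6 P5 libraries, and Fgf15 reached 788.3 at E15.5.

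**Figure D3:**
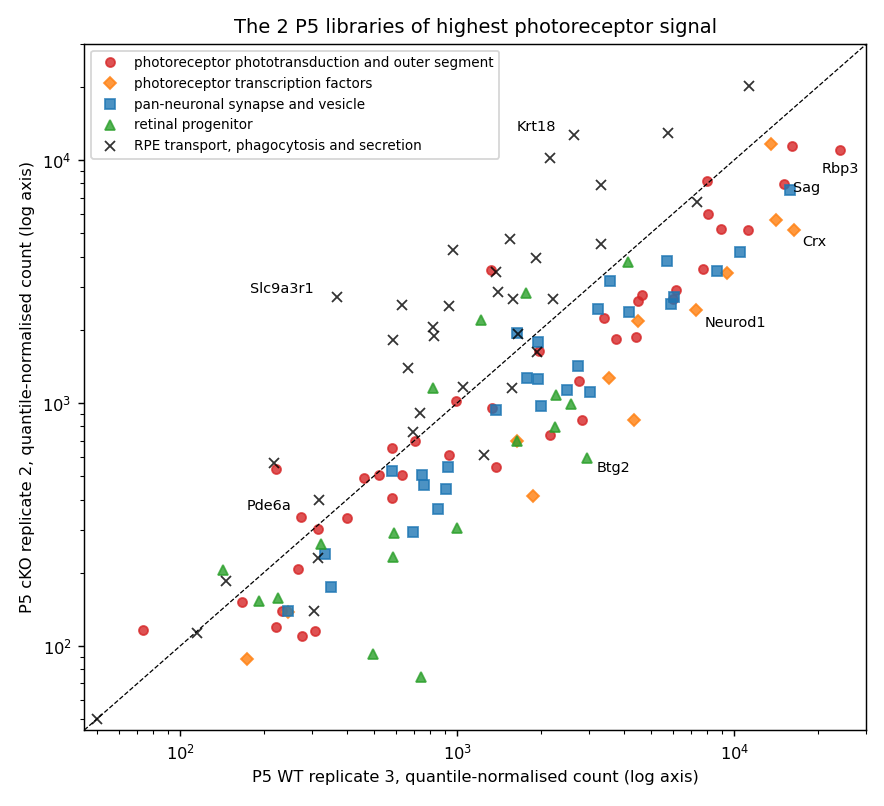
Quantile-normalised counts of 5 gene lists in P5 WT replicate 3 (horizontal, log axis) and P5 cKO replicate 2 (vertical, log axis), 1 point per gene, with equality as a dashed line. Transcription factors and progenitor genes such as Crx and Btg2 lie below the line, Pde6a lies above it, and most RPE transport genes lie above it.

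Progenitor genes were more often higher than lower in the high libraries, and glial lists gave no common direction. Of 18 progenitor genes that passed, 7 were higher without overlap and 1 lower, against 16% and 19.6% of all genes. Their median log2 ratio was 0.69, or 0.47 with no filter. Six6, an eye field homeobox factor, read 61.6, 50 and 206.5 in the low and 278, 307 and 1000.1 in the high libraries. Of 18 Müller glia genes, 4 were higher, 3 were lower and 11 overlapped, and the median log2 ratio was -0.01. These shares were near those of all genes, 16% higher and 19.6% lower. Crb1, an apical polarity protein of Müller glia and photoreceptors, read 51.4, 51.8 and 179 and 352, 561 and 1185, whereas Cd44, an adhesion receptor, read 1242, 1166 and 1046 and 778, 701 and 366. Glul, glutamine synthetase, overlapped at 10807, 12390.1 and 12871 and 16113, 13958 and 8171. Gfap, an intermediate filament of astrocytes, was highest in WT replicate 2, a low library, at 18743 against at most 6362 in any other. Slc1a3, a glial glutamate transporter, was likewise highest there, at 1016, 1341 and 3269.8 in the low and 2317, 1024 and 3028 in the high libraries.

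RPE lists differed in how far they ran opposite to the retinal genes, and pigment genes did so more than transport genes. In the melanin and melanosome list 8 of 23 genes were lower without overlap, against 19.6% of all genes. None was higher and the median log2 ratio was -0.5. The mean log2 level of the list was 10.64, 10.17 and 10.46 in the low and 10.21, 9.79 and 9.22 in the high libraries. Mlph, which links melanosomes to myosin, read 1741, 1039 and 1057 in the low and 602, 432 and 246.5 in the high libraries. Rab38, also lower without overlap, read 752, 371 and 519 and 292, 154 and 123. Tyrp1, a melanosomal enzyme, read 19463, 12016 and 15573 and 12871, 6997 and 5545, with a slight overlap. Tyr, the rate-limiting enzyme of melanin synthesis, was at 6997, 7368 and 8052 and 10247, 7142 and 2338, so that WT replicate 3 alone was low. In the list of RPE transport, phagocytosis and secretion 1 of 35 genes was higher, 7 were lower and 27 overlapped, with a median log2 ratio of -0.06, so the share lower was near the 19.6% of all genes. Krt18, an epithelial keratin of RPE, read 5278, 6337 and 7977 and 13135, 12654 and 2646.5. Slc9a3r1, an apical scaffold protein, read 841, 1485 and 978 and 2949, 2739.9 and 367. In both genes cKO replicates 3 and 2 were the highest libraries and WT replicate 3 the lowest. Both were chosen after their values were seen, and in both the sets overlapped. Among the 7 lower genes, Aqp1 read 2728, 2798 and 1741 in the low and 1225, 608 and 1247 in the high libraries. Cdh1 read 502, 356 and 374 and 264, 112.5 and 115. Lin7a was the 1 higher gene, at 50, 50 and 63.3 and 105.5, 229 and 314.

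RPE transport genes also differed among the high libraries themselves. Taking the libraries labelled WT alone, with replicate 3 over replicates 1 and 2, the list medians were -1.47 for melanosome genes, -1.18 for RPE transport and -0.93 for the visual cycle. With the libraries labelled cKO alone, replicates 2 and 3 over replicate 1, they were -0.18, 0.27 and 0.36. The phototransduction list was high in both, at 3.17 and 2.75. Median ratios of cKO replicate 2 to WT replicate 3 were 1.78 for RPE transport and 1.45 for melanosome genes. Ratios of single libraries vary more than ratios of set medians, so their sizes are not compared. The libraries cKO replicate 2 and WT replicate 3 also differ in label, so a part of the label in that difference cannot be told apart. In the visual cycle list 15 of 16 genes overlapped between the sets. Its median of -0.38 includes Rgr, the retinal G protein-coupled receptor of RPE and Müller glia, and Rpe65, the retinoid isomerohydrolase, which followed the labels. Rgr read 10706, 93.2 and 14597 in the low and 203.5, 199 and 6784 in the high libraries, at or under 203.5 in each library labelled cKO and at or over 6784 in each labelled WT.

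**Figure D4:**
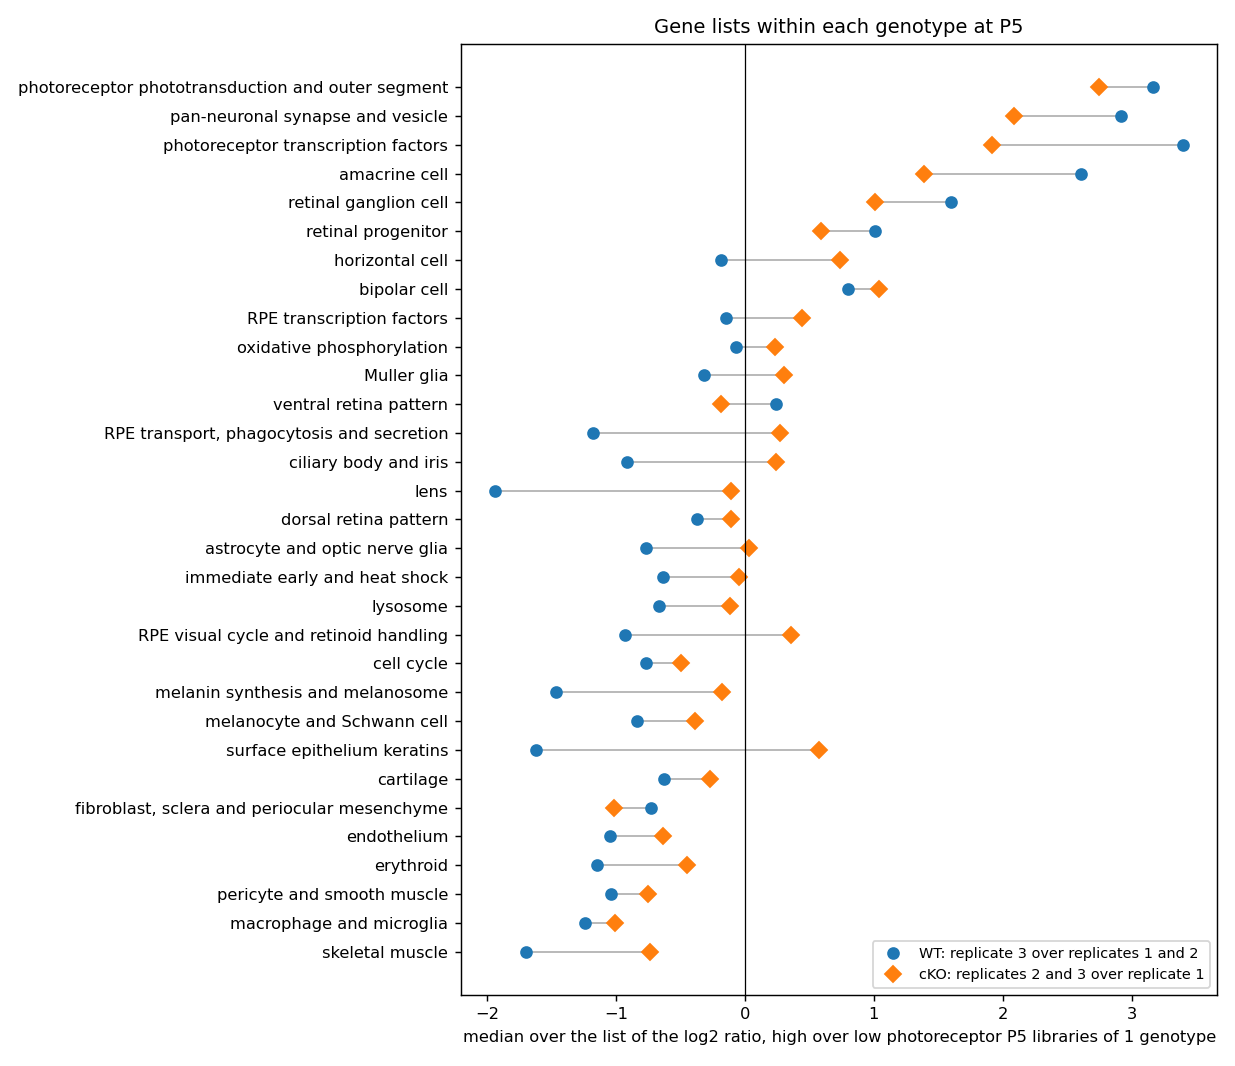
Median log2 ratio of each of the 31 gene lists between high and low photoreceptor P5 libraries of 1 genotype label (blue circles WT, orange diamonds cKO). Photoreceptor lists are to the right in both, macrophage and vessel lists to the left in both, and RPE, lens and ciliary lists lie further to the left in WT than in cKO.

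Vessel genes were lower in the high libraries. Of 24 endothelial genes, 20 were lower without overlap, against 19.6% of all genes. None was higher and the median log2 ratio was -0.86. Cd34, a sialomucin of endothelium and progenitor cells, read 5208, 4069 and 4203 in the low and 2709, 2093 and 1895 in the high libraries. Cdh5, the cadherin of endothelial junctions, read 7324, 5425 and 5218.5 and 3481, 1722 and 2688. Kdr, the VEGF receptor, was an exception at 4361, 2932 and 2966 and 2099, 1610.3 and 3923, with WT replicate 3 the second highest of the 6. Of 12 pericyte and smooth muscle genes, 9 were lower without overlap, against the same 19.6%, with a median log2 ratio of -0.99. Kcnj8, a potassium channel subunit of pericytes, read 678, 718 and 451 and 326, 168 and 211.

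Connective tissue genes showed the same order. In the list of fibroblast, sclera and periocular mesenchyme 20 of 25 genes were lower without overlap, against 19.6% of all genes. None was higher, and the median log2 ratio was -0.84. Prrx1, a homeobox factor of mesenchyme, read 1507.5, 1473 and 1205 in the low and 758, 763 and 575 in the high libraries. Col3a1, a fibrillar collagen, read 95933, 114320.3 and 60565 and 37268, 39044 and 57072. The list took 5.88%, 6.28% and 4.54% of the summed values in the low and 3.18%, 2.82% and 4.35% in the high libraries. Col1a1, another fibrillar collagen, reached the highest value of the quantile-normalised table in 4 of the 6 libraries, so differences between those libraries cannot be seen.

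Macrophage and microglia genes were lower in the high libraries as well. Of 17 that passed, 15 were lower without overlap, against 19.6% of all genes. None was higher, and the median log2 ratio was -1.0. Mrc1, the mannose receptor of tissue macrophages, read 662, 608 and 424 in the low and 183, 231 and 157 in the high libraries. Cx3cr1, a fractalkine receptor of microglia and macrophages, read 425, 427 and 349 and 182, 198 and 169. Adgre1, which encodes F4/80, read 194, 171 and 100.1 and 55.3, 50 and 50. Of 13 melanocyte and Schwann cell genes, 7 were lower without overlap, against the same 19.6%. Among the 7 was Mcoln3, a lysosomal channel, at 393, 296 and 203 and 107, 90.4 and 50. Only 5 erythroid genes passed, of which 3 were lower, a small number to set against that share. Hbb-bs, a beta globin, read 4843, 3443 and 4969 and 2886, 2149 and 1949.5.

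The 12 genes at least 2 times lower in the high libraries lay in none of the lists. Cldn11, a claudin of tight junctions, was the furthest apart, at 538, 599.8 and 442 in the low and 194.5, 81.5 and 164 in the high libraries. Bcl6b, a transcriptional repressor found in endothelium, read 670.0, 572 and 515.5 and 203, 172 and 239. Gjb2, the gap junction protein connexin 26, read 729.8, 449.9 and 391 and 185, 123 and 82.3. Fcrls, an Fc receptor-like gene of mouse microglia, read 177, 251 and 115 and 55.5, 50 and 56.3. Scd1, a fatty acid desaturase, and Cybrd1, a ferric reductase, had level values in the low libraries, at 528.5, 510.5 and 546 and 481, 468 and 478, and stood at 244, 180.5 and 208 and 224, 159.5 and 215 in the high. Others of the 12 were Thsd4, Adamtsl1, Adamtsl3, Magix and Myo1f. Across the 12 genes the lowest low library was 2.04 to 2.27 times the highest high library.

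**Figure D5:**
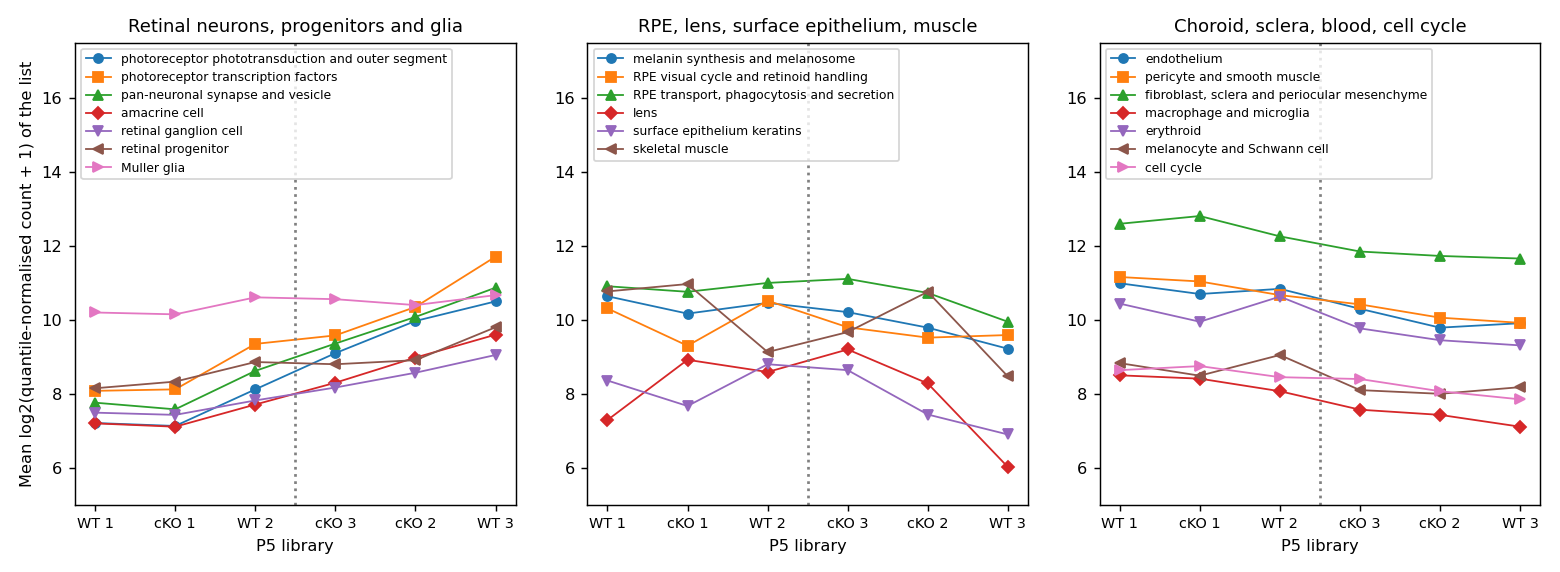
Mean log2(quantile-normalised count + 1) over the genes that passed in each of 20 lists, for the 6 P5 libraries by rising photoreceptor signal, with a dotted line between the low and high libraries. Retinal neuron lists climb, from 7.21 to 10.50 for phototransduction genes, choroid and macrophage lists descend, and lens, surface epithelium and muscle lists follow neither order. The list labelled surface epithelium keratins holds here only the 3 genes that passed, Dsp, Sfn and Perp, and no keratin.

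Markers of lens, skeletal muscle and surface epithelium varied between the P5 libraries without following the photoreceptor order. Lens crystallins were lowest in WT replicate 3 and next lowest in WT replicate 1, and Cryaa read 1019.7, 3310.5 and 2293 in the low and 4118, 2017 and 107 in the high libraries. Of 19 lens genes 18 overlapped, and the list mean in the 6 libraries was 7.29, 8.92, 8.59, 9.2, 8.28 and 6.02. Skeletal muscle genes were high in WT replicate 1 and cKO replicates 1 and 2, and Acta1, the skeletal muscle actin, read 32145, 33277 and 9175 and 13438, 24109.8 and 7142. None of the 24 muscle genes separated the sets. Krt5 and Krt15, keratins of surface epithelium, were above the floor in 1 library of each set and so did not pass the filter. Krt5 read 1093 in WT replicate 2 and 565.9 in cKO replicate 3, and Krt15 read 1179 and 672.3, both at the floor in the other 4 P5 libraries. The part of these tissues in the differences of RPE genes was not tested.

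Lists of cell state had smaller median ratios. Of 34 cell cycle genes, 18 were lower without overlap in the high libraries, none was higher, and the median log2 ratio was -0.49, where 19.6% of all genes were lower. Mcm6, a subunit of the replicative helicase, read 938, 884 and 763 in the low and 573, 343 and 419.9 in the high libraries. Of 31 oxidative phosphorylation genes, 6 were higher without overlap, a share near the 16% of all genes, and 25 overlapped. In the lysosome list 19 of 26 genes overlapped, against 8254 of all 12816 genes. Of 14 immediate early and heat shock genes 3 were lower without overlap, near the 19.6% of all genes.

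Of the 122 higher genes, 6 from outside the lists and Vax2 from within them are given here. Elfn1, a postsynaptic adhesion protein, read 56.3, 139 and 140.3 in the low and 546, 725.5 and 827 in the high libraries. Rp1l1, a photoreceptor axoneme protein related to Rp1, read 50, 50 and 98.8 and 319.5, 632 and 956. Chga, chromogranin A of secretory granules, read 50, 50 and 70.9 and 222, 414 and 611. Cdk5r2, an activator of the neuronal kinase CDK5, read 50, 50 and 136 and 410.5, 823 and 1258. Insm1, a zinc finger factor of neuronal and neuroendocrine precursors, read 183, 182.5 and 749 and 1683, 2920.1 and 7492. Npy, the neuropeptide Y, read 50, 50 and 51.7 and 143, 264 and 422. Vax2, a ventral eye homeobox factor of the RPE transcription factor and ventral lists, read 50, 50 and 51.8 and 135, 169.8 and 286. In 109 of the 122 genes the 3 high libraries stood in the order of the marker genes, against 1273 of the 2046 genes higher with any gap and 3246 of all 12816. In 90 of the 122 WT replicate 2 was the highest of the low libraries, against 1301 of the 2046 and 5107 of all. Values of the same libraries chose these genes, so the counts are a description.

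The E15.5 libraries were not used in the ordering. Of the 122 higher genes, 41 (33.6%) lay at the floor in all 6 E15.5 libraries, against 4.31% of all genes described. The phototransduction list mean was 6.14 to 6.18 at E15.5. In E15.5 cKO replicate 1 the synapse list mean was 8.05 and the amacrine mean 8.23, against 7.37 to 7.63 and 7.58 to 7.69 in the other E15.5 libraries.

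The comparison that the labels define, cKO minus WT, was set beside these genes. At P5 limma called 27 genes higher (0.2%) and 6 lower (0.0444%) of 13523 in libraries labelled cKO, at an adjusted p under 0.05. None of the 122 higher or 12 lower genes was called by limma, and 0 of the 122 had an unadjusted p under 0.05, against 1036 of all genes described. Each set mixes both labels, so a gene that separates the labels cannot separate the sets, and all 33 called genes overlapped between them. The log2 fold change at P5 was 0.12 ± 1.18 (SE, n = 3 per group) for Rbp3, 0.21 ± 1.28 for Sag and -0.16 ± 1.19 for Nr2e3, with a limma adjusted p of 1.0 for each. The median SE of the 122 genes was 0.83, against 0.19 over all genes, so the genotype difference of these genes was estimated with less precision. The 122 and the 12 genes were chosen for a gap between the sets, which forces a wide spread within each label. Their lack of calls and their wide SE follow largely from that choice. At E15.5 limma called 0 genes higher (0.0%) and 1 lower (0.00739%), with 49 genes at an unadjusted p under 0.05, and none of the 122 was called. The groups share an estimate of the spread for each gene, so the P5 spread also widens the SE at E15.5. The median SD within groups of the 122 was 1.63 at P5 and 0.2 at E15.5, so their lack of calls says little about E15.5. The genotype difference at P5 minus that at E15.5 was called by limma in 7 genes in the higher direction (0.0518%) and in Rgr alone in the lower (0.00739%).

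Adding the mean log2 level of Rbp3, Sag and Nr2e3 to the model as a term moved the count of P5 genotype calls to 121 higher and 76 lower, and these included all 33 genes called without it. With cKO replicate 1, a low library, left out, 84 genes were called higher and 22 lower. Without WT replicate 3, the highest library, 37 genes were called lower, and without cKO replicate 2 or 3 only 8 were called higher.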

How the data were processed

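Gene expression was measured by RNA sequencing of polyA RNA in 12 mouse libraries labelled RPE, grouped by the genotype and age labels, 3 per group. Reads were aligned to mm10 with TopHat2 2.0.10 and counted with HTSeq, per the submitters' processing notes. The deposited signal values are HTSeq gene counts after quantile normalisation by the authors, with a floor of 50, per the table name in the labels. All 12 columns held the same sorted values, with 1376 values (9.87%) at the floor, so depth is unknown and no counting interval could be given. The sources used here give no annotation release and no strand setting. Quantile normalisation forces a gain in some genes to be offset in ranks by others, so differences are relative within a library.

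Positions are from GENCODE M21 (GRCm38), which held 13927 of the 13942 identifiers, and 25 entries had no symbol. The high and low P5 libraries are described by per-library values, by whether the sets overlap and by the log2 ratio of their medians. Genotype was tested with limma 3.58.1 in R 4.3.3 (eBayes with trend, two-sided, log2(value + 1), 4 group means over 12 libraries) on 13523 genes above 50 in at least 3 of 12 libraries, with Benjamini-Hochberg adjustment over all of them, and the model was tested on simulated data. Python 3.11.15 with pandas 2.3.3 made the descriptions.

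The libraries, the 31 gene lists (625 genes) and the tests were chosen with earlier results of these data known. Named genes were Rbp3, Sag and Nr2e3, up to 5 members per list and the 15 furthest apart in each direction over all genes, by the ratio of the nearest libraries, with predicted genes passed over. Some genes that the rule names are not reported here. Other genes printed were chosen after their values were seen. Alternatives changed the pseudocount, filter, gap between sets, libraries, weights and model terms.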

Additional observations from a re-analysis of the deposited data

Results flagged for a closer look

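The genotype difference of Rgr, the RPE retinal G protein-coupled receptor gene, differed between the ages. Its log2 fold change, libraries labelled cKO minus WT, was -6.02 ± 0.32 (SE, n = 3 per group) at P5 with a limma adjusted p of 1.91e-05, and all 6 E15.5 libraries lay at the floor of 50. The interaction was -6.02 ± 0.45 (SE) with a limma adjusted p of 0.000666. At P5 all 3 libraries labelled cKO lay below all 3 labelled WT, and the sets of high and low photoreceptor signal overlapped.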

How the results depend on the processing

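Between high and low libraries the counts of genes at least 2 times apart (122 higher, 12 lower) moved most with the libraries and the gap. With genes above 50 in all 6 P5 libraries, 54 were higher. With any gap there were 2046 higher and 2516 lower, and with 4 times there were 3 and 0. The 2 highest against the 2 lowest libraries gave 619 and 484. Within 1 label, a choice made after seeing the data, WT alone gave 975 and 868 and cKO alone 479 and 332. Leaving out 1 library gave 125 to 413 higher (413 without cKO replicate 3, 347 without WT replicate 2) and 12 to 178 lower (178 and 23 on leaving out WT replicates 2 and 3, 39 and 109 for cKO replicates 1 and 3). Fewer libraries in a set make a gap easier by construction. Of 341 list medians under alternatives, 302 moved by less than 1 SD between replicates and 39 by more, 15 of these in WT alone. That SD is of the list mean within each P5 label, so it holds the spread between high and low libraries. It is widest for the lists that vary most, and a change of sign can fall within it. Without WT replicate 3 the lens median went from -0.13 to 0.42, less than 1 SD.

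For P5 genotype (27 higher, 6 lower by limma), the count was 3 and 0 with genes above 50 in all 12 libraries and 0 and 1 in a fit of the 6 P5 libraries (341 genes at an unadjusted p under 0.05). It was 121 and 76 with the marker term, and 32 were lower with library weights. Leaving out 1 library gave 8 to 84 higher and 2 to 37 lower. At E15.5 the leave-one-out range was 0 to 3 higher. The interaction gave 2 lower with the marker term. Beyond the constructions named, the cause was not tested.

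Deviations of same-numbered libraries from their group means correlated at 0.783, -0.297 and 0.185 at P5 and at -0.019, 0.274 and -0.0216 at E15.5. So few correlations cannot decide whether the replicate numbers pair the libraries. With the replicate number as a block, P5 calls were 11 higher and 2 lower, 12 of these 13 among the calls without it, E15.5 calls lower were 0 (62 genes at an unadjusted p under 0.05) and interaction calls higher were 0 (495 genes at an unadjusted p under 0.05).

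The genotype log2 fold changes of the markers, none called, changed sign. Leaving out 1 library gave -0.94 to 1.59 for Rbp3, -1.03 to 1.72 for Sag and -1.44 to 1.25 for Nr2e3, and library weights gave 0.51 for Nr2e3. Depth is unknown, and values at the floor of 50 limit ratios to lower bounds.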
